A study of Mus musculus with 5 samples.

Results

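Mouse epiblast stem cells given the MEK inhibitor PD0325901 (PD) for 3 h were compared with the untreated culture. The genes described are those outside a list of canonical targets of the kinase ERK. The comparison used 2 of the 5 arrays of the series, 1 per condition. A gene entered when its probe was detected at a detection p-value under 0.01 on either array. This held for 7575 of the 16593 named genes, and 7554 of these lay outside the list of canonical ERK targets. Levels are log2 intensities after background correction and normalization over all 5 arrays, and a log2 difference is PD minus untreated, so that a negative one means lower with PD.

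All 5 cultures were of the epiblast stem cell line E3, which the untreated label describes as having a hybrid background. Inactivated CF1 mouse embryonic fibroblasts served as feeders, and the serum-replacement (KSR) medium held 5 ng/ml FGF2 until semiconfluence. It was then exchanged for 3 h. The PD culture received KSR medium with 1 uM PD0325901, and the untreated culture received it with no supplement. The other arrays were of cultures with all 3 agents (PCL), with 3 uM CHIR99021 (CH, an inhibitor of the kinase GSK3) and with 1000 U/ml of the cytokine LIF. None of the labels names FGF2 in the medium of these 3 h. Each condition is 1 culture of 1 line on 1 array, and the RNA includes that of any feeder cells collected with the stem cells.

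The epiblast stem cell is pluripotent in the primed state, which resembles the epiblast after implantation, and FGF and activin signals maintain it. An FGF receptor acts through RAS and RAF on the kinase MEK, which phosphorylates ERK, and ERK in turn raises the transcription of immediate early genes and of feedback inhibitors such as Dusp and Spry genes. PD0325901 blocks MEK itself, and together with a GSK3 inhibitor and LIF it is a component of media that favour the naive pluripotent state. The comparison asks which transcripts outside a list of 30 canonical ERK targets differ soon after MEK is blocked. Whether genes off that list are direct readouts of ERK as well was not tested.

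The promoters of 2 genes lower and 2 genes higher with PD, those furthest from the untreated level among genes with a table entry, are shown first, to give the sequence context of genes whose levels are described below. Slc46a3 encodes a lysosomal transporter, Grm6 a metabotropic glutamate receptor, Klf2 a Krüppel-like transcription factor of the pluripotency network, and Gadd45g a protein of growth arrest and stress signalling. The sequences are RefSeq promoters on GRCm38.p6, the 250 bases before the annotated start, printed 5′ to 3′ on the strand of the gene with GC boxes (GGGCGG on either strand) in capitals. The Slc46a3 stretch is chr5:147894816-147895065 on the minus strand, and the plus-strand stretches are chr11:50850435-50850684 for Grm6, chr8:72318812-72319061 for Klf2 and chr13:51846425-51846674 for Gadd45g.
Slc46a3: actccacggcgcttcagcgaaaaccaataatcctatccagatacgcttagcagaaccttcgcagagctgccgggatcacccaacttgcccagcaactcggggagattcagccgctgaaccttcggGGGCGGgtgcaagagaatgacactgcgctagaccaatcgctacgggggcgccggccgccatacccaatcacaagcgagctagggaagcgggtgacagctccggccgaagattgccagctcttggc
Grm6: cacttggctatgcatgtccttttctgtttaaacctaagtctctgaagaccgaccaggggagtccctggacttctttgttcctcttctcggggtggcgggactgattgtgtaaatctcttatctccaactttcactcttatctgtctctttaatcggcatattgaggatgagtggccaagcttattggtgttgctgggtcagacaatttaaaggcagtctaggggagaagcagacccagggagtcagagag
Klf2: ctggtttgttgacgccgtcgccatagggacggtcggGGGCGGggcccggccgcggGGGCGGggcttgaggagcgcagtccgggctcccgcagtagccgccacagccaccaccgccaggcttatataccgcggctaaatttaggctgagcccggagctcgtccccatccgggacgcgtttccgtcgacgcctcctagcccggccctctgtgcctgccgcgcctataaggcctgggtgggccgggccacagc
Gadd45g: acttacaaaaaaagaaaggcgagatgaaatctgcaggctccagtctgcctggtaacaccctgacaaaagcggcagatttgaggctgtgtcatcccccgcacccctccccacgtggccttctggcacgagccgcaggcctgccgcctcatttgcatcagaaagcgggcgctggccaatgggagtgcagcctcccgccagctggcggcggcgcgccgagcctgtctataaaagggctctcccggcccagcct

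The 5 arrays were close in the share of detected probes, 39.4% to 42.7% of 25697, and correlated pairwise at 0.988 to 0.993 across probes. The 75th percentile of signal was 137 on the PD array, against 178 on the untreated array, the brightest one, and 140 to 153 elsewhere. With 1 array per condition there is no test, no p-value and no spread between cultures. The error given as ± is the bead-level standard error of the difference (n = 1 array per condition), which covers the measurement on the array and nothing before it. Over the 7575 genes the median difference was -0.003, the 5th and 95th percentiles were -0.49 and 0.44, and the median bead-level standard error was 0.12.

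The inhibitor was checked on ERK targets. The immediate early transcription factor Egr1 had a level of 6.32 with PD and 10.01 in the untreated culture, a log2 difference of -3.68 ± 0.13. The ERK phosphatase Dusp6 had a level of 9.32 with PD and 10.80 untreated, and the feedback inhibitor Spry4 5.73 with PD and 6.87 untreated. Of the 21 detected genes of the ERK list, 5 were at least 2-fold lower and 0 at least 2-fold higher, against 0.66% and 0.145% of all 7575 genes. At least 1.5-fold lower were 11 (52.4%) and higher 0, against 3.38% and 1.99% of all genes. Members that did not reach 1.5-fold included Ccnd1 (-0.45), Ier3 (-0.37), Fos (-0.34) and Plaur (-0.16). Spred2, detected with PD only, differed by 0.33. The RNA of the drug's own targets did not reach a 1.5-fold difference. Map2k2, which encodes MEK2, had a level of 10.03 with PD and 9.88 untreated, while Map2k1, which encodes MEK1, was dim and detected on the PD array only (5.01 with PD, 4.55 untreated).

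Lower genes outnumbered higher ones. Outside the ERK list 45 genes were at least 2-fold lower and 11 at least 2-fold higher with PD. Over all 7575 genes the background was 0.66% lower and 0.145% higher, that is 50 and 11 genes. The split depended on the scaling, since 49 genes were lower and 43 higher when arrays were scaled to the same 75th percentile, and in the authors' processed values 94 were lower and 41 higher. Higher genes were thus 18% of the 2-fold genes here, 46.7% with the percentile scaling and 30.4% in the authors' values. At 1.5-fold 256 genes were lower (3.38%) and 151 higher (1.99%), so that 37.1% of them were higher, against 209 lower and 287 higher (57.9% higher) with the percentile scaling. Without background correction 25% of the 1.5-fold genes were higher, and with an offset of 50 it was 24.2%. Just inside the 2-fold limit lay Tor3a (-1.0) and Ttc7 (1.02), and just outside it Eomes (-0.99) and the chemokine Cxcl12 (0.99). Of the 45 lower genes 37 were detected on both arrays and 8 on the untreated array only. For those 8 a difference is a lower bound, and the bound reached 2-fold for Grm6, Tcf15, Slc35d3 and Pdgfra and not for Atrx, Nfkbib, Otud7a and Tmem229a. Of the 11 higher genes 8 were detected on both arrays.

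**Figure D1:**
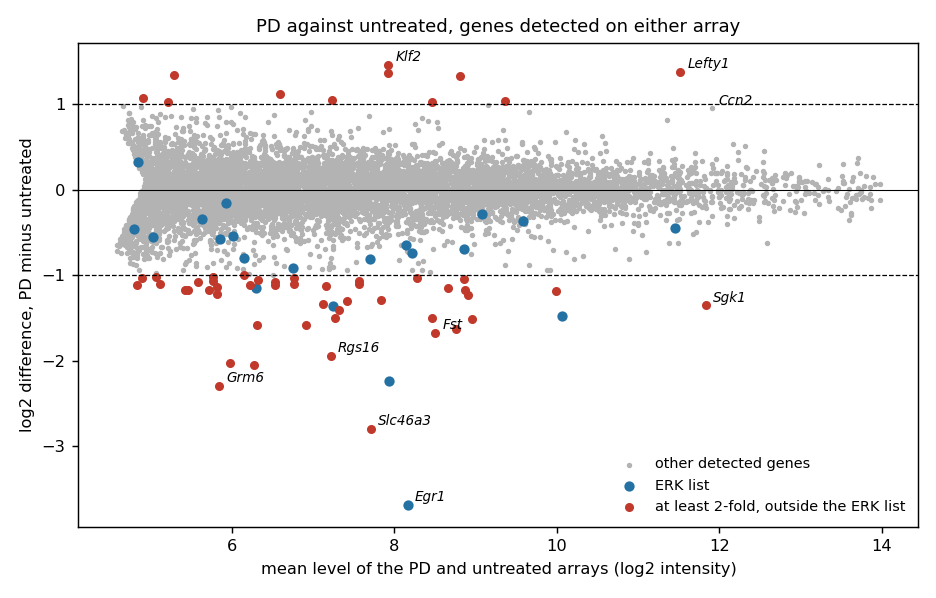
Each point is a gene detected on either array, with the mean log2 level of the PD and untreated arrays on the horizontal axis and the log2 difference, PD minus untreated, on the vertical axis. Dashed lines mark 2-fold, blue points the 21 detected genes of the ERK list and red points the 45 lower and 11 higher genes outside it, where Slc46a3 stands at -2.79 and Klf2 at 1.46.

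Among the lower genes outside the ERK list the transporter Slc46a3 stood furthest from the untreated culture. Its level was 6.31 with PD and 9.10 untreated, a 6.93-fold difference (-2.79 ± 0.12). It was 6.03 with PCL, 7.54 with CH and 7.59 with LIF, so the untreated array was the highest of the 5 and the arrays with PD the lowest. Grm6 was not detected with PD (4.69) and had a level of 6.98 untreated, which makes it at least 4.0-fold lower. It was 4.99 with PCL, 6.06 with CH and 5.98 with LIF. Lor, which encodes loricrin, a protein of the cornified envelope of skin, had a level of 5.25 with PD and 7.30 untreated (-2.05 ± 0.15), with 5.14 on the PCL array, 6.07 on CH and 6.15 on LIF. In each of these 3 genes the CH and LIF levels lay between those of PD and untreated. The sizes depended on the setting, with -3.06 to -1.26 over the alternatives for Slc46a3, -2.79 to -0.97 for Grm6 and -2.69 to -0.86 for Lor, all of them lower with PD.

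Signalling proteins of the membrane and the cytoplasm made up a further set of lower genes. Rgs16, a GTPase-activating protein that shuts off G-protein signals, had a level of 6.25 with PD and 8.19 untreated (-1.94 ± 0.12), with 6.74 on PCL, 8.36 on CH and 7.80 on LIF. Here the CH and LIF arrays lay near the untreated level, unlike in Slc46a3. The kinase Sgk1, which responds to growth factors and glucocorticoids, had a level of 11.16 with PD and 12.51 untreated (-1.35 ± 0.07). Errfi1, a feedback inhibitor of EGF receptors, had a level of 9.40 with PD and 10.58 untreated (-1.19 ± 0.07). The receptor tyrosine kinase Epha1 had 8.29 with PD and 9.53 untreated (-1.24 ± 0.11). Sema7a, a membrane-anchored semaphorin, had 6.61 with PD and 8.02 untreated (-1.41 ± 0.15). For Sgk1, Errfi1, Epha1 and Sema7a the PCL array was also low (11.47, 9.13, 8.45 and 6.94), and the CH and LIF arrays lay closer to the untreated than to the PD level.

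Secreted proteins were the next set. Follistatin (Fst), which binds and blocks activin, had a level of 7.67 with PD and 9.34 untreated (-1.67 ± 0.09). On the other arrays Fst was 9.50 with PCL, 10.66 with CH and 8.47 with LIF. PCL thus lay below CH, above LIF and near the untreated level. Angptl4, an inhibitor of lipoprotein lipase, had 7.94 with PD and 9.57 untreated (-1.63 ± 0.11), with 8.30 on PCL, 9.73 on CH and 9.41 on LIF. Plau, the urokinase-type plasminogen activator, had 6.52 with PD and 8.02 untreated (-1.50 ± 0.10), with 6.36 on PCL, 8.0 on CH and 7.88 on LIF. The chemokine Ccl7 had 7.71 with PD and 9.21 untreated (-1.49 ± 0.08), with 8.01 on PCL, 9.38 on CH and 8.72 on LIF. Angptl4, Plau and Ccl7 were therefore low on both arrays with PD and high on the 3 without it. Fjx1, a Golgi and secreted protein of the Four-jointed family, had 6.12 with PD and 7.71 untreated (-1.58 ± 0.19).

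Some of the secreted and surface genes at least 2-fold lower are also known from fibroblasts. These were, besides Ccl7 and Plau, the growth factor Fgf7 (5.99 with PD, 7.07 untreated), the cytokine Il11 (6.25 with PD, 7.27 untreated), the adhesion molecule Vcam1 (5.66 with PD, 6.78 untreated) and the ectonucleotidase Nt5e (6.77 with PD, 8.07 untreated). Of 18 feeder fibroblast markers with a probe, 12 were detected, 0 were at least 1.5-fold higher and 1 at least 1.5-fold lower. A gene detected on 1 array only counted when its bound reached 1.5-fold, and on this count the background was 1.31% higher and 2.32% lower. The lower marker was Pdgfra, which like Twist1 was detected on the untreated array only. The bounds were at least 2.03-fold lower for Pdgfra and at least 1.44-fold lower for Twist1. The collagen Col1a1 differed by 0.07, Vim by 0.15, Thy1 by 0.26, Dcn by -0.48, Lum by -0.58 and Col6a1 by -0.58. Further probes differed by 0.46, 0.58 and 0.31 for Acta2, by -0.43 for Dcn and by -0.32 for Col6a1. Those of Prrx1 differed by 0.20 and -0.02. Col1a2, Col3a1, Postn, Pdgfrb, S100a4 and Fap were detected on neither array. The summed feeder marker level was 12.80 with PD and 12.79 untreated on the log2 scale, and between 12.73 and 12.91 on the other arrays. Which of the cells in the dish carried the differences in these genes was not tested, and in such bulk RNA fewer cells of a type and less RNA per cell cannot be told apart.

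Transcription regulators formed the last set among the 14 lowest genes. Tcf15, a basic helix-loop-helix factor of the epiblast and the somites, was not detected with PD (4.96) and had a level of 6.99 untreated, so it was at least 4.02-fold lower. It was 5.41 with PCL, 5.61 with CH and 6.48 with LIF, and its difference ranged over -2.81 to -0.90 between the alternatives. Sox13 had a level of 5.52 with PD and 7.10 untreated (-1.58 ± 0.17), with 5.93 on PCL, 6.54 on CH and 6.56 on LIF. Lbh, a transcriptional cofactor of limb bud and heart, had 8.20 with PD and 9.71 untreated (-1.51 ± 0.08). Lbh was 7.84 with PCL, 9.50 with CH and 9.56 with LIF, and a further Lbh probe read 7.05 with PD and 7.97 untreated. Of the 45 lower genes, 10 had 13 further probes detected on the PD or the untreated array, all of them lower with PD. Of these probes 11 were lower by at least 1.5-fold and 3 by at least 2-fold. They were read on the same 2 arrays that chose the genes. Some entered through the untreated array only, such as those of Sema7a (4.55 with PD) and Nt5e (4.76 with PD), which favours a lower reading. The shared direction is therefore no separate support. Dim further probes detected on 1 of the 5 arrays differed by 0.39 for Zbtb8a, 0.15 for Atrx and -0.06 for Ptges.

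**Figure D2:**
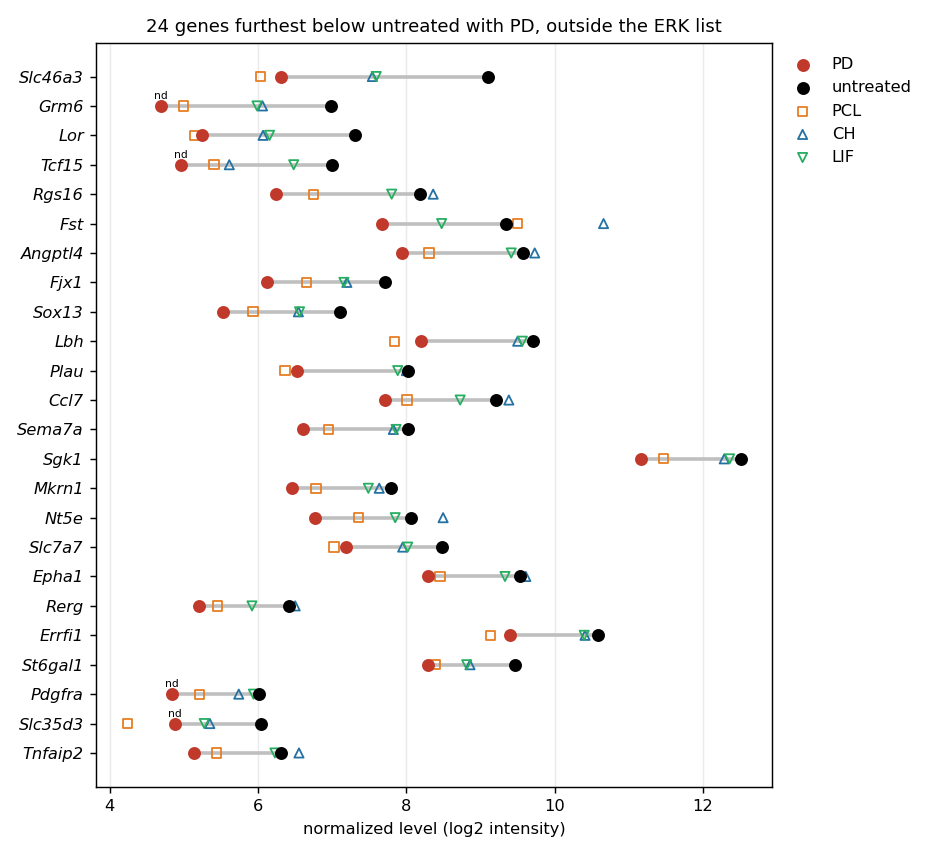
Log2 levels on all 5 arrays of the 24 genes furthest below untreated with PD outside the ERK list, with PD as red and untreated as black filled circles joined by a line, PCL as squares, CH as upward and LIF as downward triangles, and nd for not detected. The PCL square lies near the PD circle in most rows, but for Fst it stands at 9.50, beside the untreated level.

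The genes higher with PD were led by Klf2. Its level was 8.65 with PD and 7.19 untreated, a 2.75-fold difference (1.46 ± 0.11), with 9.36 on PCL, 7.45 on CH and 7.44 on LIF. Lefty1, an antagonist of Nodal, had a level of 12.21 with PD and 10.83 untreated (1.38 ± 0.06), with 12.25 on PCL, 10.90 on CH and 11.38 on LIF. Gadd45g had a level of 8.60 with PD and 7.24 untreated (1.36 ± 0.12), with 8.81 on PCL, 7.48 on CH and 7.08 on LIF. Both arrays with PD lay above the 3 without it in all 3 genes. A second Gadd45g probe differed by 1.5 on the log2 scale. Rhob, a small GTPase of the cytoskeleton and of endosomes, had a level of 9.47 with PD and 8.14 untreated (1.32 ± 0.10), and Chst15, a sulfotransferase of chondroitin sulfate, 7.15 with PD and 6.04 untreated (1.11 ± 0.11).

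Fgf8, an FGF ligand of the early embryo, had a level of 9.87 with PD and 8.84 untreated (1.03 ± 0.10). Its CH level of 9.74 lay next to the PD level, and it was 10.23 with PCL and 9.06 with LIF. Timp3, an inhibitor of metalloproteinases, had 7.76 with PD and 6.71 untreated (1.05 ± 0.13), while a dim second probe, detected on 1 of the 5 arrays, differed by -0.02. Tmem254a had 8.97 with PD and 7.95 untreated (1.03 ± 0.18), and 8.21 to 8.24 on the other 3 arrays, PCL included. Lce1f, another protein of the cornified envelope, was detected with PD (5.96) and not in the untreated culture (4.62), which makes it at least 2.10-fold higher. The Wnt ligand gene Wnt4 and Ttc7 were also detected with PD only, at least 1.47-fold and 1.79-fold higher. Close below the limit were Cxcl12 (9.64 with PD, 8.65 untreated), whose further probes differed by 0.48 and 0.94, the FGF-binding protein Fgfbp1 (6.47 with PD, 5.50 untreated) and the matrix-associated Ccn2 (12.38 with PD, 11.43 untreated).

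**Figure D3:**
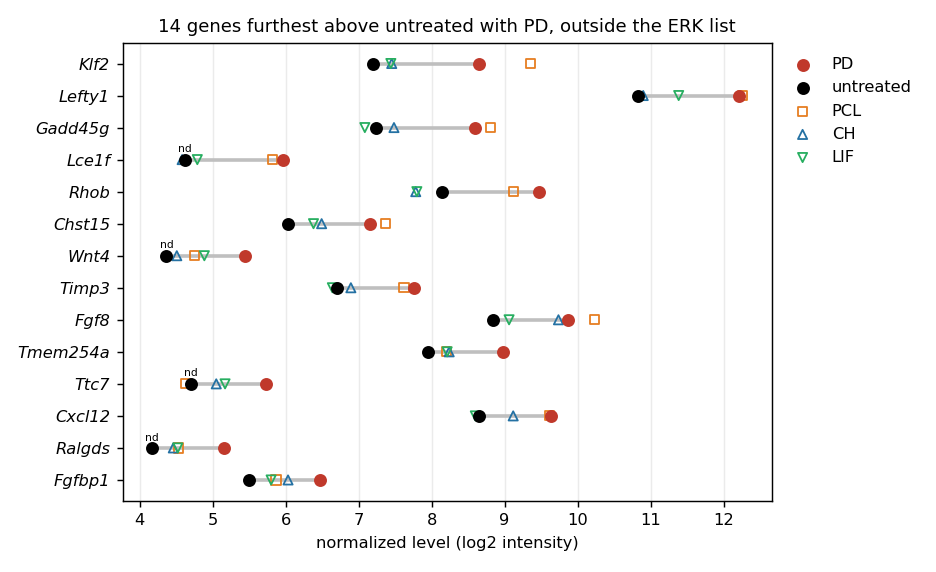
Log2 levels on all 5 arrays of the 14 genes furthest above untreated with PD outside the ERK list, with PD as red and untreated as black filled circles joined by a line, PCL as squares, CH as upward and LIF as downward triangles, and nd for not detected. For Klf2, Lefty1, Gadd45g and Rhob the PCL square lies on the PD side of CH and LIF, while for Ttc7 (4.63) and Tmem254a (8.21) it does not.

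The 3 arrays that the comparison did not use gave a second view of the 56 genes, because PCL contains PD and the CH and LIF cultures do not. PCL differs from CH and from LIF by a further agent as well, so this is not a replicate of the comparison. All 45 lower genes were lower with PCL than the mean of CH and LIF, where 47.3% of the 7575 genes were. At least 1.5-fold below both CH and LIF were 24 of the 45 (53.3%), against a background of 0.871%. The median of PCL minus the mean of CH and LIF was -0.81 for the 45 genes and 0.01 for all 7575. The furthest were Lbh (-1.70), Plau (-1.58) and Slc46a3 (-1.54), and the nearest to 0 was Fst (-0.07).

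Of the 11 higher genes, 9 were higher with PCL than the mean of CH and LIF (52.7% of all genes were), and 7 were at least 1.5-fold above both (63.6%, against a background of 0.541%). Their median was 0.93, with Klf2 furthest (1.91). Gadd45g (1.52), Rhob (1.33), Lce1f (1.13), Lefty1 (1.11), Chst15 (0.93) and Timp3 (0.85) were the other 6. Fgf8, Tmem254a, Ttc7 and Wnt4 were not 1.5-fold above both, and Ttc7 was lower with PCL (-0.48). With the limit at 1.5-fold the direction was shared by 194 of the 245 genes at least 1.5-fold lower outside the ERK list (79.2%) and 113 of the 151 at least 1.5-fold higher (74.8%). At least 1.5-fold beyond both CH and LIF were 38 of the 245 (15.5%) and 20 of the 151 (13.2%).

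**Figure D4:**
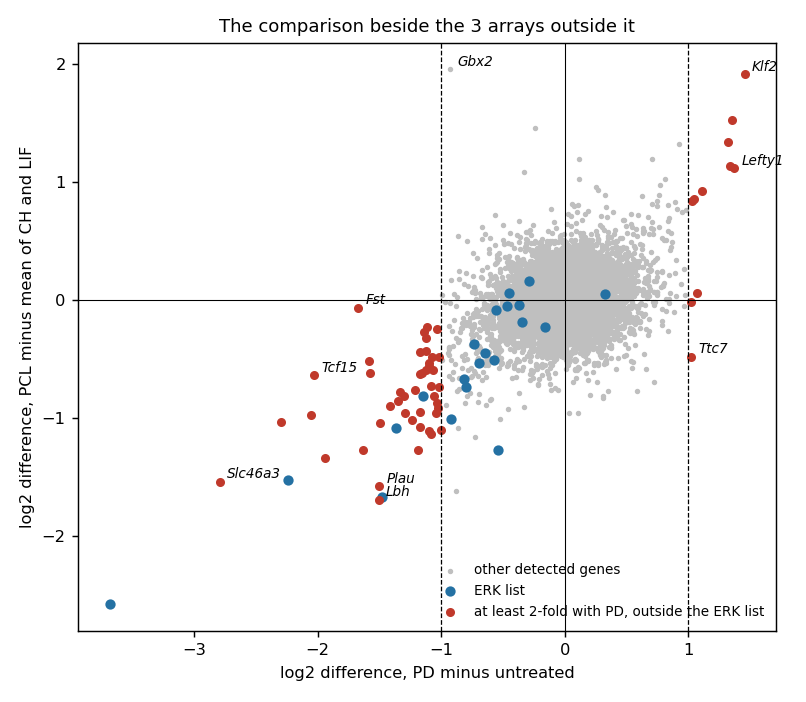
For each gene detected on either array, the log2 difference of PD minus untreated on the horizontal axis and of PCL minus the mean of CH and LIF on the vertical axis, from 5 arrays with none in common between the axes. The 45 lower genes (red, left of the dashed line) all lie below 0 on the vertical axis, Fst at -0.07 being the closest, and Gbx2 lies apart at -0.93 and 1.95.

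Pathways were described by counts of detected members at least 1.5-fold different. A gene detected on 1 array only counted here, and among the markers, when its bound reached 1.5-fold. On this count the background over all 7575 genes was 2.32% lower and 1.31% higher. Genes for the proteins between the FGF receptor and ERK came first. Of 16 detected components of the RAS/ERK cascade 0 were higher and 0 lower, with a median of 0.17. The receptor Fgfr2 was dim and detected with PD only, with a bound of at least 1.15-fold higher. Mknk2, a kinase that ERK activates, had a level of 9.09 with PD and 8.70 untreated. Among 11 detected FGF ligands and binding proteins 3 were lower and 2 higher. Lower were Fgf7, Fgf5, a marker of the primed epiblast (8.93 with PD, 9.80 untreated), and Fgf15 (6.31 with PD, 7.01 untreated). Higher were Fgf8 and Fgfbp1.

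Among 33 adhesion, matrix and secreted genes 5 were higher (Chst15, Timp3, Cxcl12, Ccn2 and the tight junction protein Cldn4 at 0.79). Another 3 were lower (Fjx1, the integrin subunit Itga3 at -0.94 and the chemokine Cxcl1 at -0.92). Itga3 was low with CH and LIF too (8.02 and 8.20, against 7.87 with PD and 8.81 untreated). The 7 detected Eph receptors and ephrins included 1 lower gene, Epha1, whose 3 further probes differed by -1.18, -0.96 and -0.76, and 0 higher ones.

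Nodal, activin and BMP signalling did not differ in 1 direction. Of 23 detected members 4 were lower and 1 higher, with a median of -0.04. Lefty1 was the higher one, whereas its relative Lefty2 had a level of 8.40 with PD and 8.80 untreated, and Nodal itself 9.34 with PD and 9.0 untreated. The lower ones were Fst, the BMP antagonist Chrd (5.97 with PD, 7.09 untreated), the Nodal co-receptor Tdgf1 (6.15 with PD, 6.74 untreated) and the repressor Tgif1 (7.22 with PD, 7.85 untreated). Chrd was 6.54 with CH and 6.52 with LIF, between the PD and untreated levels. Tgif1 was 7.38 with CH, near its PD level, and further Tgif1 probes disagreed, at 0.16 and -0.42. Of 22 detected Wnt pathway genes 4 were lower and 1 higher. Lower were Lbh, the receptor Tnfrsf19 (6.64 with PD, 7.57 untreated), and the ligands Wnt5a (6.59 with PD, 7.34 untreated) and Wnt8a (8.66 with PD, 9.30 untreated). A further Wnt5a probe differed by -0.28, and further Wnt8a probes by -0.42 and -0.58. The receptor Fzd10 was higher (7.30 with PD, 6.49 untreated), with further probes at 0.66 and 0.96, and the feedback inhibitor Axin2 had a level of 7.58 with PD and 7.91 untreated.

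Pluripotency factors differed in both directions. Of 16 detected naive pluripotency and Klf factors 3 were higher and 2 lower, with a median of 0.10. Beside Klf2 these were Nanog, a core factor of pluripotency (10.10 with PD, 9.20 untreated), and Klf4 (6.27 with PD, 5.42 untreated). Nanog was also 9.98 with CH and 9.50 with LIF, so the untreated array was the lowest. Klf5 (6.73 with PD, 7.65 untreated) and the homeobox factor Gbx2 (5.67 with PD, 6.6 untreated) were the lower ones. Of 18 detected primed epiblast and core transcription factors 7 were lower and 1 higher, with a median of -0.33. Tcf15, Sox13, the POU factor Pou3f1 (8.33 with PD, 9.37 untreated), Sox2 (7.10 with PD, 7.95 untreated), Utf1, Dppa4 and Rarg were lower, and Sox21 was higher (6.29 with PD, 5.36 untreated). Pou3f1 and Sox2 were low with CH too (7.96 and 7.28), and Pou5f1, which defines the pluripotent state, had a level of 12.17 with PD and 12.36 untreated. Rarg was low with CH too (5.96, against 6.18 with PD and 6.83 untreated), and a further Rarg probe differed by -0.29. All 13 epiblast stem cell markers with a probe were detected, of which 5 were lower (Sox2, Tdgf1, Utf1, Fgf5 and Pou3f1) and 1 higher (Nanog).

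Most genes of the growth, stress and immediate early lists differed by less than 1.5-fold, but the counted shares were to be read against a background of 1.31% higher and 2.32% lower. Of 22 detected growth arrest and stress genes 3 were higher (13.6%) and 1 lower (4.5%). Gadd45b (6.54 with PD, 5.65 untreated) and the chaperone Hspb1 (8.64 with PD, 7.88 untreated) were higher together with Gadd45g, and the family member Gadd45a was lower (7.76 with PD, 8.79 untreated). Immediate early genes outside the ERK list had 3 of 16 members lower (18.8%) and 1 higher (6.2%). The lower ones were Sgk1, Junb (6.68 with PD, 7.46 untreated) and the cytokine-signalling inhibitor Socs3 (6.11 with PD, 6.97 untreated). The higher one was Jund, which like Junb encodes an AP-1 factor (6.95 with PD, 6.08 untreated). Of 22 hypoxia and lipid metabolism genes 2 were lower, Angptl4 and Ndrg1 (7.75 with PD, 8.69 untreated), though Ndrg1 was equally low with CH (7.73). The higher one was the mTOR inhibitor Ddit4 (10.87 with PD, 10.24 untreated). Cell cycle genes had 1 of 22 members higher (Pcna, 0.69 ± 0.27) and 0 lower. Ribosome biogenesis genes had 0 of 20 in either direction and ranged over -0.33 to 0.15, and the 10 reference genes had 0 in either direction.

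Markers of other cell types were set beside these lists. Of 6 detected naive embryonic stem cell markers 1 was at least 1.5-fold higher (Klf4) and 0 lower, with a median of -0.18. The others were Zfp42 at 0.15, Dppa3 at 0.05, Fgf4 at -0.41, Esrrb at -0.55 and Tbx3, detected on the untreated array only, at -0.45. Of 7 detected mesendoderm markers 2 were at least 1.5-fold lower and 0 higher, with a median of -0.12. The lower ones were Eomes (6.0 with PD, 7.0 untreated) and Foxa2 (5.54 with PD, 6.27 untreated). Lhx1 differed by -0.55, and Gsc went the other way (8.31 with PD, 7.99 untreated). Eomes was 8.38 with CH, above the untreated level. The neural markers detected were Map2 and Nes, 2 of 7, which differed by 0.12 and 0.18.

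**Figure D5:**
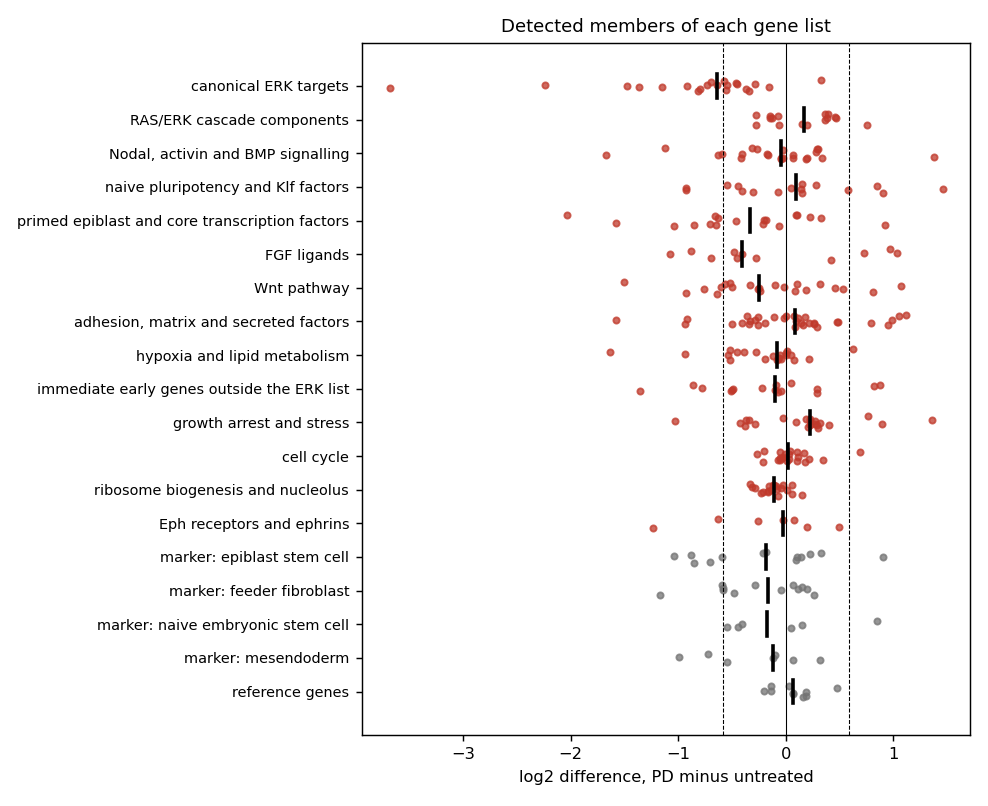
Each point is a detected member of a gene list with its log2 difference, PD minus untreated, on the horizontal axis, genes detected on 1 array included at their measured difference, the black bar is the list's median and dashed lines mark 1.5-fold. The ERK list has its median at -0.64, primed epiblast factors at -0.33 and FGF ligands at -0.41, and the ribosome biogenesis genes stay between -0.33 and 0.15.

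The promoters of the 2-fold genes were searched for motifs of factors that act downstream of MAP kinases. Of the 45 lower genes 31 matched the promoter table, with 47 promoters, and of the 11 higher ones 8, with 10 promoters. The CArG box, which serum response factor binds, was in 0 of the 47 and 0 of the 10. Its share was 1.467% of all 32851 promoters in the table and 1.268% of the 8046 promoters of detected genes. With so low a share, sets this small cannot show a lack of it. Of the 21 detected ERK list genes 12 matched, with 18 promoters, of which 5 held it, those of Egr2 and Srf. Neither gene reached a 1.5-fold difference with PD (Egr2 -0.46, detected on the untreated array only, and Srf -0.29). The ETS motif CCGGAAGT was also in 0 of both sets and in 0 of the 18 ERK list promoters, against 2.877% of all and 6.202% of those of detected genes. The AP-1 motif TGANTCA was in 3 of the 47 (6.383%; Il11, Lor and St6gal1) and 0 of the 10, against 6.749% of all and 4.35% of those of detected genes. The CRE motif TGACGTCA was in 2 of the 47 (4.255%; Errfi1 and Otud7a) and 0 of the 10, against 1.546% of all and 2.635% of those of detected genes. GC boxes were in 24 of the 47 (51.064%) and 8 of the 10, against 32.742% of all and 59.607% of those of detected genes. Each motif was searched on both strands, and a match is only a description of the letters in this window.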

How the data were processed

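RNA of 5 cultures was hybridised to 1 single-colour Illumina bead array each. Per the file headers, the deposited scanner tables give for each of 25697 probes a signal intensity, a bead-level standard error and a detection p-value. Per the submitters' processing notes the authors used BeadStudio, of unstated version. A deposited table of processed intensity values, normalized by a method the sources used here do not state, served as an alternative, and 16 was put in place of its empty cells and of values below 16.

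Signals were corrected with limma 3.58.1 in R 4.3.3 (normexp with background levels inferred from the detection p-values, offset 16), quantile-normalized over the 5 arrays and put on the log2 scale. The offset compresses differences of dim genes. The correction and normalization were also run on simulated data, a copy of the untreated array with known differences put on bright probes. That run could not test dim probes or the unequal brightness of the PD and untreated arrays. Platform annotation gave 1 symbol for 23978 probes and none for 1719. The probe with the highest mean stood for its gene. A gene counted when it was detected at a p-value under 0.01 on either array. Where it was detected on 1 array only, the bound is against the lowest detected level of the other array.

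Members, gene lists and comparisons were chosen with earlier results of these data known. The rule for named genes took the 14 lowest and 14 highest genes outside the ERK list, up to 4 members of each list with the largest difference, Map2k1 and Map2k2, and 3 ERK targets, and not each gene it took is printed. Further list members and Errfi1, Il11, Vcam1, Nt5e and the genes named by family were chosen after their values were seen. Alternatives changed the background correction, offset, normalization, detection limit, choice of probe, source of values and comparison array. With 1 array per condition the number of arrays limits the precision, and no array was left out in turn. The result of 1 gene list is not reported here.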

Additional observations from a re-analysis of the deposited data

Results flagged for a closer look

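Genes that differed by at least 1.5-fold in opposite directions in the comparison and on the 3 arrays outside it are listed here, and the difference between the effects was not tested. The homeobox gene Gbx2 had a level of 5.67 with PD and 6.6 untreated, whereas PCL (9.82) lay above CH (8.37) and LIF (7.37), by 1.95 over their mean. Tomm7, a subunit of the mitochondrial import pore, had a level of 9.65 with PD and 9.06 untreated, whereas PCL (8.29) lay below CH (9.09) and LIF (9.03), at -0.77 against their mean. The zinc finger gene Zfp459 had a level of 5.76 with PD and 5.04 untreated, and PCL (4.92) lay below CH (5.63) and LIF (5.60), at -0.69.

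Probes without a gene name were not used in the comparison. Of 625 such probes detected on either array, 2 were at least 2-fold lower with PD and 0 at least 2-fold higher. ILMN_1244340 had a level of 6.23 with PD and 7.36 untreated (-1.13). ILMN_2907370 had a level of 4.75 with PD and 5.93 untreated (-1.18).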

How the results depend on the processing

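The genes named among the lowest and highest kept their direction, and the counts depended on the settings. All 34 named genes at least 2-fold different, ERK targets included, had the same direction under each alternative (28 of 28 when detection on both arrays was required). These genes were selected for a large difference, and each alternative used the same PD array. A kept direction was therefore likely from the start and is no separate support. Still at least 2-fold different were 15 without background correction, 21 with an offset of 50, 31 after scaling to the 75th percentile, 33 in the authors' values, 23 against the median of untreated, CH and LIF and 22 against the mean of CH and LIF, a comparison chosen after seeing the data. Over the alternatives Rgs16 ranged over -2.21 to -1.25, Plau over -1.67 to -0.99 and Klf2 over 1.09 to 1.56. The 11 genes at least 2-fold higher numbered 4 without background correction, 4 with an offset of 50, 43 after scaling to the 75th percentile, 41 in the authors' values, 6 against the median of untreated, CH and LIF and 7 against the mean of CH and LIF. The 50 at least 2-fold lower numbered 13 without background correction, 25 with an offset of 50, 94 in the authors' values and 33 against that median. At 1.5-fold the 151 higher genes numbered 21 without background correction, 31 with an offset of 50, 287 after percentile scaling, 91 when detected on both arrays and 272 in the authors' values. The 256 lower genes numbered 63 without background correction, 97 with an offset of 50, 165 (detected on both arrays), 160 (that median) and 148 (mean of CH and LIF). The cause of these shifts was not tested. Dim probes limit the comparison, since the lowest detected level was 4.98 with PD and 4.89 untreated. No paired analysis was possible because each condition has 1 array and no test was made.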

Other observations

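Families grouped by symbol after their values were seen gave the following counts at 1.5-fold, with a gene detected on 1 array at its bound. The background over all genes was 2.32% lower and 1.31% higher. Of 5 detected suppressors of cytokine signalling 3 were lower and 0 higher with PD: Socs5 (5.25 with PD, 6.27 untreated), Socs2 (9.41 with PD, 10.35 untreated) and Socs3. The LIF and PCL arrays had Socs3 levels of 8.92 and 8.45, above the 6.97 of the untreated culture. Of 10 detected matrix metalloproteinases 3 were lower and 0 higher: Mmp9 (5.72 with PD, 6.71 untreated), Mmp10 (6.94 with PD, 7.88 untreated) and Mmp3 (8.13 with PD, 8.83 untreated). They degrade matrix together with the plasmin system to which Plau belongs. Chemokines and interleukins had 3 of 12 members lower (Ccl7, Il11 and Cxcl1) and 1 higher (Cxcl12).

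Of 132 detected solute carriers 7 were lower (5.3%) and 3 higher (2.3%). Beside Slc46a3 the lower ones included the amino acid transporter Slc7a7 (7.19 with PD, 8.48 untreated) and the iron exporter ferroportin, Slc40a1 (7.01 with PD, 8.11 untreated). Slc7a7 was 7.02 with PCL, 7.95 with CH and 8.02 with LIF, and Slc40a1 was 6.50 with PCL, 7.54 with CH and 7.69 with LIF. The Iroquois homeobox genes Irx3 (7.43 with PD, 6.52 untreated) and Irx5 (6.05 with PD, 5.28 untreated) were higher, 2 of 3 detected. Both were also higher with PCL (7.69 and 6.39) than with CH (7.13 and 5.51) or LIF (6.71 and 5.34). The claudins of the tight junction had 2 of 7 members higher, Cldn4 (8.92 with PD, 8.13 untreated) and Cldn3 (5.96 with PD, 5.17 untreated), and 0 lower.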
